A study of Mus musculus with 24 samples.

Results

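The family of miR-148 and miR-152 was followed in the mouse mammary gland through 4 of the 1009 miRNAs listed: mmu-miR-148a-3p, mmu-miR-148a-5p, mmu-miR-148b-3p and mmu-miR-152-3p, written below without the species prefix. They were chosen by name, as the mature products listed for the family together with the second arm of the miR-148a precursor. No measured value entered the rule, but earlier results of these data were known when the members were chosen. All 4 passed the filter on low values (a mean of at least 1 RPM, reads per 1000000 miRNA reads, at 1 or more stages), as did 544 of the 1009. The 24 libraries each came from 1 female of the inbred line C57BL/6, with 6 females per stage. The stages were the adult at week 10 (W10), late pregnancy at day 18 (P18), lactation at day 7 (Lac7) and involution, the regression that follows the end of milk removal, at day 3 (Inv3). The labels name no transgene and no treatment. The libraries were made from whole homogenates of abdominal and inguinal glands, which hold epithelium, fat, vessels, stroma and immune cells. The text deposited with the series names day 3 for lactation, day 7 for involution and inguinal glands alone, whereas the labels of the libraries and the paper give the days used here.

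A miRNA guides a silencing complex to messenger RNAs that pair with its seed, the stretch near its 5′ end, so miRNAs with the same seed share many predicted targets. This family is known for targeting DNMT1, the maintenance DNA methyltransferase, and miR-148a-3p is among the most abundant miRNAs of milk and of its extracellular vesicles. Each precursor hairpin yields a 5p and a 3p arm, of which the 3p arm is the usual guide strand in this family.

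The mature sequences are shown because the 3p members share a seed and differ at few other bases, which is what allows their reads to be told apart. They are RefSeq sequences (GRCm38.p6), written 5′ to 3′ with bases 2 to 8, the seed, in capitals.
miR-148a-3p: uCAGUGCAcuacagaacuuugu
miR-148b-3p: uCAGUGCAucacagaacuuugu
miR-152-3p: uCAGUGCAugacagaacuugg
miR-148a-5p: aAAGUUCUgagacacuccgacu
Counted from 1 at the 5′ end, miR-148b-3p differed from miR-148a-3p by C9U and U10C, and miR-152-3p differed from miR-148a-3p by C9U, U10G and U20G and was 21 rather than 22 bases long. Among the 1679 mature mouse miRNAs of the RefSeq table, only these 3 carried the 3p seed at bases 2 to 8. That table held a sequence for 854 of the 1009 listed miRNAs, and the others could not be searched. The arm miR-148a-5p has another seed, which it shares with miR-148b-5p (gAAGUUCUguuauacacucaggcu) and not with miR-152-5p (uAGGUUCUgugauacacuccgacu).

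The 3 loci lie apart in the genome (GRCm38, GENCODE). Mir148a, at chr6:51269812-51269910 on the minus strand, lay in no annotated host gene, and the nearest protein-coding gene was Nfe2l3 at 163 kb. Mir148b, at chr15:103285125-103285221 on the plus strand, lay in an intron of Copz1 in 4 of 4 transcripts. Mir152, at chr11:96850393-96850465 on the plus strand, lay in an intron of Copz2 in 3 of 5 transcripts, with no exon over it. Copz1 and Copz2 encode zeta subunits of the COPI coat, which carries cargo between Golgi and endoplasmic reticulum, and both hosts are on the strand of their miRNA.

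Values are RPM as the authors deposited them, scaled to the reads of the listed miRNAs. The libraries held 660346 to 1165321 reads, with the shallowest at Lac7 (660346 to 751890), so 1 read stood for about 1 RPM and a count of 0 allows 2.57 to 4.54 RPM (3 reads). These limits cover counting error only. Because every library has the same total, the level of a miRNA also depends on the reads that other miRNAs take, and over the 544 tested miRNAs the log2 fold change had a median of -0.32 for P18 against W10, -0.34 for Lac7 against P18 and 0.28 for Inv3 against Lac7. Scaling by DESeq2 size factors moved these medians to -0.12, -0.14 and 0.18. The share of called miRNAs that were higher moved from 29.2 to 43.5%, from 30.5 to 44.5% and from 59.6 to 51.0%. In whole tissue, fewer cells of a type and less of a miRNA per cell cannot be told apart. Markers of mammary epithelium, the miR-200 and miR-183 families with miR-375-3p, were all found (9 of 9).

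miR-148a-3p was the most abundant member and differed between stages in every comparison. In the mice of W10 it ranged from 1809 to 3632 RPM (median 2220), at P18 from 19936 to 24827 (median 20707), at Lac7 from 42158 to 49878 (median 46970), and at Inv3 from 2810 to 15195 (median 9648). The mice of W10, P18 and Lac7 formed 3 separate ranges, and those of Inv3 lay below every P18 and Lac7 mouse while overlapping W10. The mean was 2356 ± 659 RPM in adult glands, 21329 ± 1763 in pregnancy, 46228 ± 2907 in lactation and 9078 ± 5737 in involution (SD, n = 6 each). It was thus 0.236% of miRNA reads at W10 and 4.62% at Lac7, and its rank among the listed miRNAs went from 37 to 54 in the W10 libraries to 10 or 11 at P18, 7 or 8 at Lac7 and 14 to 41 at Inv3.

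miR-148a-5p, the other arm of the same hairpin, was present at a far lower level. It ranged from 0 to 5.38 RPM at W10 (median 1.64), where 2 libraries had no read and the 6 held 11 reads in all. It ranged from 15.5 to 31.1 RPM at P18 (median 24.6), from 15.5 to 42.0 at Lac7 (median 31.5) and from 3.60 to 17.4 at Inv3 (median 7.78). Every P18 and Lac7 mouse lay above every W10 mouse, P18 and Lac7 overlapped widely, and Inv3 overlapped all 3 other stages.

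miR-148b-3p and miR-152-3p moved within a narrow range. miR-148b-3p lay between 50.5 and 91.5 RPM at W10 (median 77.6), 62.9 and 97.7 at P18 (median 80.7), 117 and 174 at Lac7 (median 127) and 52.2 and 129 at Inv3 (median 82.1). All Lac7 mice were above all W10 and P18 mice, and the other stages overlapped. miR-152-3p lay between 445 and 528 RPM at W10 (median 509), 556 and 633 at P18 (median 605), 560 and 847 at Lac7 (median 771) and 433 and 800 at Inv3 (median 549). All P18 and all Lac7 mice were above all W10 mice, P18 and Lac7 overlapped through 1 Lac7 mouse, and Inv3 spanned the ranges of W10 and P18. The order of the mean levels, miR-148a-3p above miR-152-3p above miR-148b-3p above miR-148a-5p, was the same at the 4 stages.

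**Figure D1:**
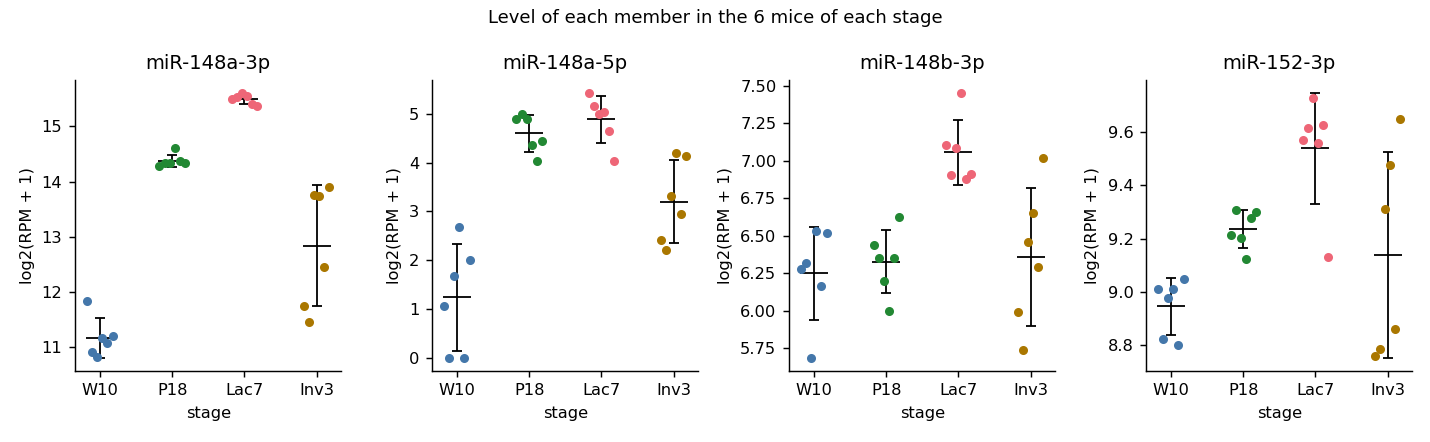
The level of each member as log2(RPM + 1) on the vertical axis, with each point 1 mouse, the horizontal bar the mean and the whiskers 1 SD of 6 mice per stage; the vertical axes differ between panels and do not start at 0. miR-148a-3p separates W10, P18 and Lac7 without overlap, and its Inv3 mice spread from 2810 to 15195 RPM.

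The first question was what changes from the adult gland to late pregnancy. Of the 4 members, 2 were called (limma, adjusted p under 0.05), where 41.5% of all tested miRNAs were called and 12.1% were higher. Folds are given here as ratios of mean RPM, while log2 fold changes are differences of mean log2(RPM + 1) from the fit, which weigh the mice differently. miR-148a-3p rose, with a ratio of means of 9.05 and a fitted log2 fold change of 3.21 ± 0.30 (SE, adjusted p = 2.7e-09), the fifth-largest increase of the 544. miR-148a-5p rose by 3.37 ± 0.41 on the log2 scale (adjusted p = 2.3e-07), on 139 reads against 11, a ratio of 13.1 with a counting interval of 7.10 to 26.9. For miR-148b-3p the log2 fold change was 0.08 (95% interval -0.31 to 0.47, adjusted p = 0.78). For miR-152-3p it was 0.29 (0.00 to 0.58, adjusted p = 0.095), although the mice of both stages did not overlap, as for 26.7% of all tested miRNAs. Both called members also passed the study's further limit of an absolute log2 fold change of 1 (27.6% of all tested). With size factors, miR-152-3p was called at 0.54 (adjusted p = 0.0013). It was also called, at 0.29, in a fit of the 12 libraries of these 2 stages alone. The main fit shares 1 spread over the 4 stages, and the log2 SD of miR-152-3p was 0.11 at W10, 0.07 at P18 and 0.39 at Inv3.

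From late pregnancy to lactation, 2 of the 4 members were called, both higher, where 45.2% of all tested miRNAs were called and 13.8% were higher. miR-148a-3p rose further, with a ratio of means of 2.17 (fitted log2 1.12 ± 0.30, adjusted p = 0.0028), and miR-148b-3p rose with a ratio of 1.67 (fitted log2 0.73 ± 0.19, adjusted p = 0.0026), each with no overlap between mice, as for 29% of all tested miRNAs. Of the called members, miR-148a-3p alone had an absolute log2 fold change of 1 or more (30.1% of all tested), but with size factors miR-148b-3p reached 1.03. miR-152-3p differed by 0.30 (95% interval 0.01 to 0.59, adjusted p = 0.081). It passed the threshold with size factors (0.61, adjusted p = 3.3e-04), in a fit of the 12 libraries alone (0.30) and without Lac7 mouse 6 (0.38). The arm miR-148a-5p differed by 0.29 (-0.57 to 1.14, adjusted p = 0.60). Against W10, all 4 members were higher at Lac7 (66.7% of all tested were called, 18.2% higher): the fitted log2 fold change was 4.33 for miR-148a-3p (ratio of means 19.6), 3.66 for miR-148a-5p, 0.81 for miR-148b-3p and 0.59 for miR-152-3p (adjusted p from 1.2e-12 to 6.0e-04). No mouse of Lac7 overlapped W10 for any of the 4, as for 41.7% of all tested miRNAs, and the 2 arms of miR-148a passed the further limit (50.2% of all tested). With size factors miR-148b-3p (1.36) and miR-152-3p (1.15) passed it too.

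In early involution all 4 members were lower than in lactation, where 46.9% of all tested miRNAs were called and 18.9% were lower. miR-148a-3p fell, with a fitted log2 fold change of -2.66 ± 0.30 (adjusted p = 4.1e-08) and a mean RPM 5.09 times lower, with every Inv3 mouse below every Lac7 mouse, as for 24.8% of all tested miRNAs in either direction, and only 4 of the 544 had a lower fold change. miR-148a-5p differed by -1.69 ± 0.41 (adjusted p = 0.0014), miR-148b-3p by -0.70 ± 0.19 (adjusted p = 0.0038) and miR-152-3p by -0.40 ± 0.14 (adjusted p = 0.020), these 3 with overlapping mice. The 2 arms of miR-148a passed the further limit (26.8% of all tested). The call of miR-152-3p was lost when Inv3 mouse 1, 2 or 5 was left out (-0.32 at the smallest) and in a fit of the 12 libraries alone (adjusted p = 0.073).

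At Inv3 both miR-148a arms were still higher than at W10 and lower than at P18. Against W10, 2 of the 4 members were called, both higher (39.2% of all tested were called, 7.9% higher): miR-148a-3p had a fitted log2 fold change of 1.67 ± 0.30 (adjusted p = 6.9e-05) and a ratio of means of 3.85, to which the 3 high Inv3 mice contribute most, with only W10 mouse 1 above any Inv3 mouse, and miR-148a-5p was higher by 1.97 ± 0.41 (adjusted p = 4.3e-04). Against P18, 2 of the 4 were called, both lower (28.5% called, 17.6% lower): miR-148a-3p by -1.54 ± 0.30 (adjusted p = 2.8e-04) and miR-148a-5p by -1.40 ± 0.41 (adjusted p = 0.012), the latter not called with a pseudocount of 0.1 (-1.52, adjusted p = 0.14). For miR-148b-3p the difference was 0.11 (-0.28 to 0.50) against W10, which edgeR (0.55) and DESeq2 (0.51) called on recovered reads, and 0.03 (-0.36 to 0.42) against P18. For miR-152-3p it was 0.19 (-0.09 to 0.48) against W10, which passed the threshold with size factors at 0.57, and -0.10 (-0.38 to 0.19) against P18, which was 0.03 with size factors. In both comparisons the 2 called members passed the further limit (25% and 14.2% of all tested). Mice did not overlap for 0 of 4 members against W10 (15.1% of all tested) and for 1 of 4, miR-148a-3p, against P18 (12.5%). The 6 comparisons share their stages and are not independent of one another.

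**Figure D2:**
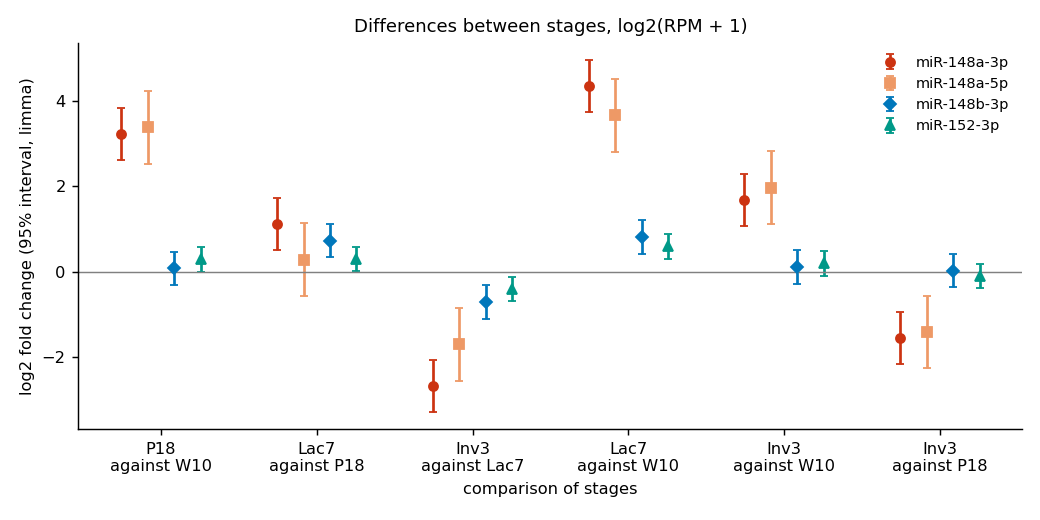
Log2 fold changes on log2(RPM + 1) for the 6 pairs of stages, with 95% intervals from limma over 24 libraries. The interval of miR-148a-3p excludes 0 in all 6 comparisons and that of miR-148a-5p in 5, while the intervals of miR-148b-3p and miR-152-3p stay between -1.09 and 1.20.

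The makeup of the seed family changed with stage. Summed over the 3 members with the shared seed, the mean level was 2926, 22012, 47110 and 9743 RPM from W10 to Inv3, or 0.293, 2.20, 4.71 and 0.974% of miRNA reads. The share of miR-148a-3p in that sum was 79.9 ± 3.24%, 96.9 ± 0.358%, 98.1 ± 0.151% and 91.2 ± 4.17% (SD, n = 6). miR-152-3p, the second member, made up 17.4% at W10, 1.59% at Lac7 and 7.71% at Inv3, and miR-148b-3p 2.67, 0.283 and 1.09%. The lowest share of miR-148a-3p at P18 was 96.6%, above every W10 and Inv3 mouse.

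**Figure D3:**
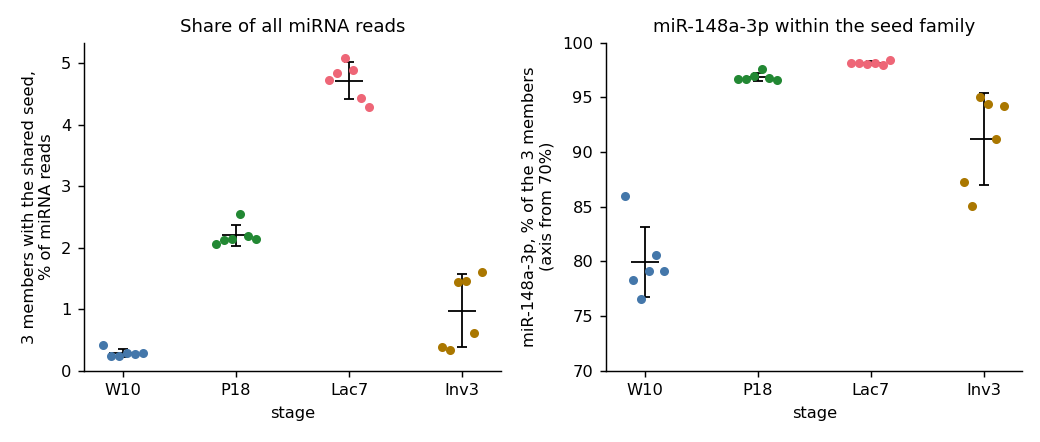
Left, the summed level of miR-148a-3p, miR-148b-3p and miR-152-3p as % of miRNA reads; right, the share of miR-148a-3p in that sum, on an axis that starts at 70%. Points are mice, bars means and whiskers 1 SD of 6 mice; the sum goes from 0.293% at W10 to 4.71% at Lac7 and the share from 79.9 to 98.1%.

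A ratio of 2 members within a library does not depend on the total of that library, apart from the 1 RPM added to each member. It thus shows unequal change with little weight on the choice of scaling, except for members near 1 RPM. For W10, P18, Lac7 and Inv3 in turn, the log2 ratio of miR-148a-3p to miR-152-3p was 2.22 ± 0.32, 5.14 ± 0.17, 5.96 ± 0.15 and 3.70 ± 0.74 (SD, n = 6). It differed in all 6 comparisons (exact permutation over 924 splits, two-sided, adjusted over 24 ratio tests, p from 0.00519 to 0.00945), and only Inv3 and W10 overlapped. The log2 ratio of miR-148a-3p to miR-148b-3p was 4.91 ± 0.37, 8.05 ± 0.31, 8.44 ± 0.18 and 6.48 ± 0.69 in the same order. It differed in 5 comparisons (adjusted exact p = 0.00519 each), while between P18 and Lac7 the difference was 0.39 (adjusted exact p = 0.0589). Between miR-148b-3p and miR-152-3p only P18 and Lac7 differed, by 0.43 (adjusted exact p = 0.0148). Reads of miR-148a-3p and miR-148b-3p are told apart by their 2 differing bases, and how reads with mismatches were assigned was not examined. From W10 to P18 the mean of miR-148a-3p went from 2356 to 21329 RPM while that of miR-148b-3p went from 76.4 to 80.0 RPM. From P18 to Lac7 both rose, miR-148a-3p to 46228 RPM and miR-148b-3p to 133 RPM.

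The 2 arms of miR-148a did not keep one ratio between pregnancy, lactation and involution. In summed reads there were 896 reads of the 3p arm for each read of the 5p arm at P18, 1546 at Lac7 and 949 at Inv3. As shares of all miR-148a reads, the 5p arm was 0.112% at P18 (139 reads, exact 95% interval 0.0938 to 0.132%), 0.0646% at Lac7 (126 reads, 0.0538 to 0.0770%) and 0.105% at Inv3 (54 reads, 0.0791 to 0.137%). Such intervals cover counting error in reads pooled over the 6 mice, and not the spread between mice. In single mice the share ran from 0.0728 to 0.151% at P18, 0.0366 to 0.0905% at Lac7 and 0.0646 to 0.128% at Inv3. Over the mice, the log2 ratio of 3p to 5p was higher at Lac7 than at P18 by 0.83 (adjusted exact permutation p = 0.0148) and lower at Inv3 than at Lac7 by 0.97 (adjusted exact permutation p = 0.0130), with overlapping mice in both. These log2 ratios hold the added 1 RPM, which lowers the ratio more where the 5p arm is lower, as at Inv3, whereas the summed reads do not. At W10 the 5p share was 0.0777% on 11 reads (0.0388 to 0.139%), an interval that holds the shares of the other 3 stages, and the sign of the ratio's difference from W10 depended on the pseudocount.

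The other arms of the family were near the limit of detection. miR-148b-5p averaged 4.56, 3.53, 10.6 and 3.12 RPM from W10 to Inv3 in order of stage, and was called higher at Lac7 than at P18 (log2 1.42, adjusted p = 0.0025) and than at W10 (1.11, adjusted p = 0.010), and lower at Inv3 than at Lac7 (-1.51, adjusted p = 0.0014). miR-152-5p averaged 5.29, 6.06, 7.27 and 6.72 RPM and was called in none of the 6 comparisons. The 5p arm was 3.73 to 7.24% of miR-148b reads and 0.975 to 1.11% of miR-152 reads over the stages, above its share at miR-148a.

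**Figure D4:**
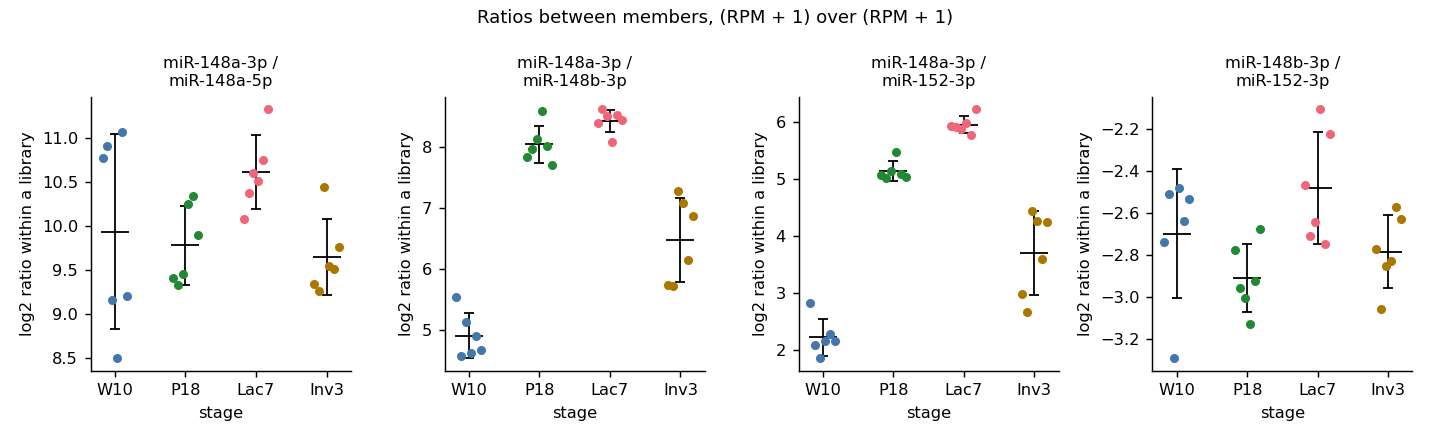
Log2 ratios of (RPM + 1) between pairs of members within each library, with points for mice and means with 1 SD of 6 mice per stage. The ratios of miR-148a-3p to miR-148b-3p and to miR-152-3p are lowest at W10 and highest at Lac7, and the ratio of the miR-148a arms has its highest mean, 10.61, at Lac7.

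Between consecutive stages, miR-148a-3p moved in the same direction as the 9 epithelial miRNAs named above. They summed to 15683 to 21676 RPM in the W10 mice, 52147 to 66646 RPM in those of P18, 122909 to 142583 RPM in those of Lac7 and 24970 to 83586 RPM in those of Inv3. Of the 9, 8 were higher at P18 than at W10, 7 higher at Lac7 than at P18 and 9 lower at Inv3 than at Lac7, with median log2 fold changes of 1.64, 1.20 and -1.59 beside -0.32, -0.34 and 0.28 over all tested miRNAs. Of all tested miRNAs, 12.1 and 13.8% were higher in the first 2 of these comparisons and 18.9% lower in the third. At Inv3 against P18, 1 of the 9 was higher and 2 were lower (median log2 fold change -0.33), beside -1.54 for miR-148a-3p. None of the 9 was at 0 in all mice of a stage. The 2 miRNAs listed for basal epithelium did not follow them from W10 to Lac7, and moved in opposite directions from Lac7 to Inv3. miR-205-5p differed by 0.15 at P18 against W10 (adjusted p = 0.66), fell by 1.57 from P18 to Lac7 and rose by 2.06 from Lac7 to Inv3, and miR-203-3p differed by 0.26 (adjusted p = 0.15), fell by 0.41 and fell by 0.71 on the log2 scale. The part of the 9 in the levels of the family was not tested, but the level of miR-148a-3p relative to theirs could be measured. As a percentage of the summed epithelial RPM, which does not include it, miR-148a-3p was 13.4 ± 4.06%, 35.3 ± 3.87%, 35.2 ± 1.76% and 16.3 ± 3.88% (SD, n = 6), in order of stage. Relative to this sum, it was 2.71-fold higher at P18 than at W10 and 2.21-fold lower at Inv3 than at Lac7 or at P18. None of these comparisons had overlapping mice (exact permutation, adjusted over 6 tests, p = 0.00325 each). Inv3 and W10 overlapped and differed by 0.29 on the log2 scale (adjusted exact permutation p = 0.25). Lac7 and P18 differed by 0.00 on the log2 scale (adjusted exact permutation p = 0.99). Against the mean log2 level of the 9 in place of their sum, Lac7 was lower than P18 by 0.45 (adjusted exact permutation p = 0.0026), while the other comparisons kept their direction and call. This comparison was chosen after the data were seen.

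Most markers of stroma and leukocytes moved the other way. So did most called miRNAs, of which 29.2% were higher at P18 than at W10, 30.5% at Lac7 than at P18 and 59.6% at Inv3 than at Lac7. Over all tested miRNAs, 41.5, 45.2 and 46.9% were called in these 3 comparisons. Of 8 stromal miRNAs, 6 were lower and 1 higher at P18 than at W10, 5 lower at Lac7 than at P18 and 8 higher at Inv3 than at Lac7. Their sums were 189712 to 236311 RPM in the W10 mice, 203952 to 225222 RPM in those of P18, 150756 to 174503 RPM in those of Lac7 and 264453 to 362703 RPM in those of Inv3. Of 5 leukocyte miRNAs, 5 were lower at P18 than at W10 and at Lac7 than at P18, and 5 were higher at Inv3 than at Lac7. They summed to 25590 to 48957, 7095 to 23550, 3993 to 12161 and 13122 to 23991 RPM at the 4 stages. Skeletal muscle miRNAs had their highest mean at W10 (2378 to 24031 RPM), and miR-122-5p, a liver miRNA, reached 2062 RPM in 1 P18 mouse. No stromal or leukocyte miRNA of the lists was at 0 in all mice of a stage, and their part in the results was not tested.

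The 3p members had their widest spread between mice at Inv3. miR-148a-3p was 3405, 2810, 13758, 13717, 5580 and 15195 RPM in Inv3 mice 1 to 6, a coefficient of variation of 63.2% against 28.0% at W10, 8.27% at P18 and 6.29% at Lac7. That of miR-148b-3p was 32.5% at Inv3 and 14.7 to 19.7% at the other stages, and that of miR-152-3p 27.1% and 4.90 to 13.1%, whereas miR-148a-5p had its widest at W10 (106%), on 11 reads. Mice 1, 2 and 5 were low and mice 3, 4 and 6 were high. The summed epithelial RPM split in the same way, at 28173, 24970 and 32326 in mice 1, 2 and 5 and 78384, 64141 and 83586 in mice 3, 4 and 6. As a percentage of that sum, which does not include it, miR-148a-3p was 12.1, 11.3 and 17.3% in the former and 17.6, 21.4 and 18.2% in the latter.

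Over the 24 mice, after subtracting the stage means, the mean log2 level of the epithelial list and miR-148a-3p had r = 0.93 and rho = 0.75 (permutation p = 0.0095 for r and 0.018 for rho, adjusted over 6 relations). Without the 2 mice farthest from the median r was 0.89, at Inv3 alone 0.98 (n = 6, adjusted exact permutation p = 0.00833) and without the Inv3 mice 0.50 (adjusted permutation p = 0.30). miR-148a-3p and miR-152-3p had r = 0.80 and rho = 0.76 (adjusted permutation p = 0.012 and 0.018), 0.72 without the 2 farthest mice, 0.95 at Inv3 and 0.27 without Inv3 (adjusted permutation p = 0.41). The relations of miR-148a-3p with miR-148b-3p (r = 0.68, rho = 0.56) and with miR-148a-5p (r = 0.52, rho = 0.52), and of miR-148b-3p with miR-152-3p (r = 0.67, rho = 0.52), passed the same threshold for r and rho (adjusted permutation p from 0.012 to 0.044) and fell to 0.20, 0.11 and 0.27 without the Inv3 mice. With size factors, rho missed the threshold for all of these except miR-148a-3p with miR-152-3p, with 0.63 for the epithelial list (adjusted permutation p = 0.088). None of these relations passed the threshold for r or rho without the 6 Inv3 mice, which fell into 2 sets of 3. The 3p members spread less within the other stages, so a relation there would be harder to detect. For miR-148a-3p with miR-152-3p, rho without the Inv3 mice was 0.46 (adjusted permutation p = 0.22). The stromal list and miR-152-3p had r = -0.50 and rho = -0.24 (adjusted permutation p = 0.14 and 0.38), made up of -0.96 at Inv3 and 0.67 over the other 18 mice.

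**Figure D5:**
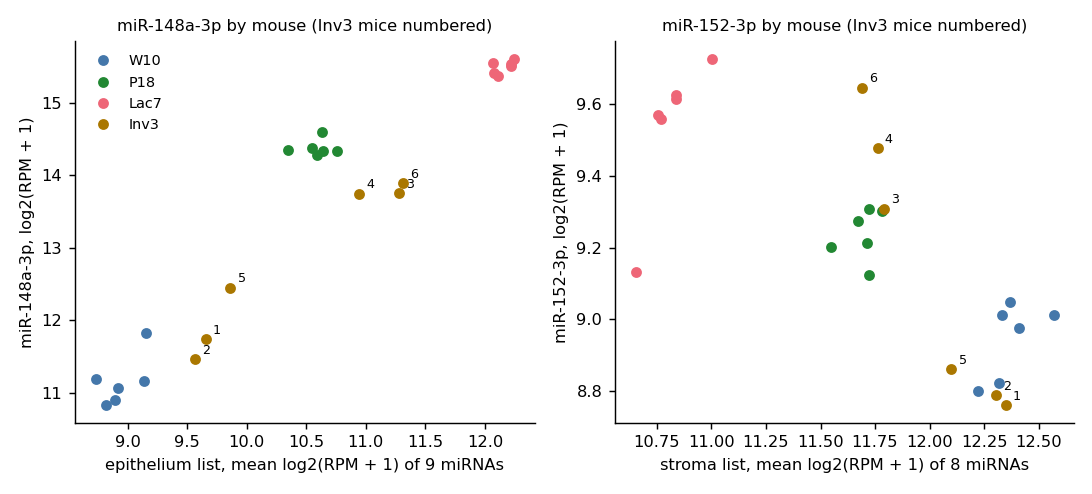
Left, miR-148a-3p against the mean level of 9 epithelial miRNAs; right, miR-152-3p against the mean level of 8 stromal miRNAs, all as log2(RPM + 1), with each point 1 mouse, colours for stages and numbers for the Inv3 mice. On the left, Inv3 mice 1, 2 and 5 lie near W10 and mice 3, 4 and 6 nearer P18; on the right, the Inv3 mice run from high to low as the stromal level goes up.

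As a description over the 24 libraries, the miRNAs whose pattern was most like that of miR-148a-3p, by the mean absolute difference of the centred log2(RPM + 1) values among 185 candidates, were miR-146b-5p (0.36), miR-200a-5p (0.38), miR-141-5p (0.46) and miR-210-3p (0.46). The median candidate was at 1.72, and miR-148b-3p and miR-152-3p were both at 1.31. Of the 4, miR-146b-5p was also of like level, with means of 2358, 31080, 50208 and 17185 RPM at W10, P18, Lac7 and Inv3. miR-148b-3p and miR-152-3p were close to each other (0.20), and both were closest among the other miRNAs to let-7f-5p (0.22 and 0.16) and miR-126a-3p (0.25 and 0.18). Next came miR-340-5p (0.28) and miR-101a-3p@ (0.28) for miR-148b-3p, and miR-10b-3p (0.19) and let-7e-5p (0.20) for miR-152-3p, the @ being part of the deposited name.

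Of 16 other miRNAs known to be abundant in milk, 7 were higher and 5 lower at P18 than at W10, 8 higher and 0 lower at Lac7 than at P18, and 2 higher and 13 lower at Inv3 than at Lac7, with median log2 fold changes of 0.40, 0.38 and -0.65 beside 3.21, 1.12 and -2.66 for miR-148a-3p. Over all tested miRNAs, 12.1% and 13.8% were higher in the first 2 comparisons and 18.9% lower in the third. In the same order, 41.5, 45.2 and 46.9% were called in either direction. The list shares 6 of its 16 miRNAs with the epithelial list, of which 5 were higher at P18 than at W10, 5 higher at Lac7 than at P18 and 6 lower at Inv3 than at Lac7. Of the other 10, 2 were higher and 5 lower, 3 higher and 0 lower, and 2 higher and 7 lower. The family of miR-130 and miR-301 carries the letters of the same seed shifted to bases 1 to 7, and 4 of its 5 miRNAs on the list were tested. Of these 4, 1 was higher and 1 lower at P18 than at W10, 2 were lower at Lac7 than at P18 and 3 were higher at Inv3 than at Lac7. Their sums averaged 604, 869, 400 and 628 RPM from W10 to Inv3, against 2926, 22012, 47110 and 9743 RPM for the 3 members with the seed at bases 2 to 8.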

How the data were processed

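Small RNA of 24 mouse mammary glands was extracted with mirVana, made into libraries with a QIAseq miRNA kit and assigned by the authors with QuickMIRSeq and miRBase 22. The processing notes name Trimmomatic 0.36, cutadapt, FastQC, MultiQC and GRCm38. The study's methods and legends name different sequencers. The deposited values are RPM on the listed miRNAs, and whole reads were recovered for 100% of values (tolerance 0.006 RPM).

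limma 3.58.1 (R 4.3.3, trend) was fitted on log2(RPM + 1) over 24 libraries. Each miRNA had 1 estimate of spread for the 4 stages, although the stages were unequal (log2 SD of miR-148a-3p 0.09 at Lac7 and 1.10 at Inv3). In fits of the 12 libraries alone its SE was 0.064 (Lac7 against P18) and 0.40 (Inv3 against Lac7), beside 0.30 in the main fit. A call needed p under 0.05 after two-sided testing and Benjamini-Hochberg adjustment over 544 miRNAs, and the calling was tested on simulated data. Fold changes on this scale understate those of low miRNAs. Ratios were compared by exact permutation and relations by 100000 permutations within stages (scipy 1.17.1). The alternatives included edgeR 4.0.16 and DESeq2 1.42.0 on recovered reads. The text names all members, the other arms of their loci and, for each 3p member, the 4 miRNAs of most like pattern. Members and lists were chosen with earlier results of these data known. RefSeq sequences matched 4 of 4 members. Labels do not say more of how mice were housed or sampled, so anything in these that went with stage cannot be told apart from stage. The p-values set differences between stages against the spread between these mice.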

Additional observations from a re-analysis of the deposited data

Results flagged for a closer look

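Single mice stood apart from the other 5 of their stage by Dixon's test in 6 of 32 sets of values. For normally distributed values, chance alone sets apart about 1 in 20. The sets are not independent, since the ratios reuse the values of the members, so no excess over that rate can be read from the count. miR-148a-3p was 3632 RPM in W10 mouse 1, where the nearest mouse had 2339, and 24827 RPM in P18 mouse 4, where the nearest had 21216. miR-148b-3p was 174 RPM in Lac7 mouse 4 (nearest 137) and miR-152-3p was 560 RPM in Lac7 mouse 6 (nearest 753). The log2 ratio of miR-148a-3p to miR-152-3p was 5.48 in P18 mouse 4 (nearest 5.14), and that of miR-148b-3p to miR-152-3p was -3.29 in W10 mouse 3 (nearest -2.74). No miR-148a-3p call depended on any one of these mice, and leaving out Lac7 mouse 6 brought the rise of miR-152-3p from P18 to Lac7 past the threshold.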

How the results depend on the processing

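No call of miR-148a-3p changed under any alternative run. For miR-148a-5p, the Inv3 against P18 difference was -1.52 (adjusted p = 0.14) with a pseudocount of 0.1. For miR-148b-3p, Inv3 against W10 was called by edgeR (0.55) and DESeq2 (0.51). For miR-152-3p, size factors, the 12 libraries alone, edgeR and DESeq2 gave calls at 0.54, 0.29, 0.59 and 0.54 for P18 against W10 and at 0.61, 0.30, 0.47 and 0.61 for Lac7 against P18. Inv3 against Lac7 was lost in the 12 libraries (-0.40). Size factors, edgeR and DESeq2 called Inv3 against W10 at 0.57, 0.64 and 0.60 and turned Inv3 against P18 to 0.031, 0.050 and 0.062. Leaving out each mouse gave -0.034 to 0.14, -0.025 to 0.23 and -0.10 to 0.15 for miR-148b-3p (P18 against W10, Inv3 against W10, Inv3 against P18), and 0.26 to 0.38 (Lac7 against P18) and -0.50 to -0.32 (Inv3 against Lac7) for miR-152-3p. Ratios of the miR-148a arms against W10 turned with a pseudocount of 10 (P18 1.70, Inv3 0.995) or 0.1 (Lac7 -0.70, and 2.60 with 10), since the 5p arm had 11 reads at W10, and leaving out mice gave -0.44 to 0.071 for P18. The ratio of miR-148a-3p to miR-148b-3p at Lac7 against P18 was called with a pseudocount of 10 (0.45; 0.32 to 0.50 without single mice), and miR-148b-3p to miR-152-3p ran from -0.33 to -0.17 (P18 against W10) and -0.36 to -0.23 (Inv3 against Lac7). The relation of the miR-148a arms missed the threshold with size factors (0.51), where rho also missed it for the epithelial list (0.63), the miR-148a arms (0.37), miR-148a-3p with miR-148b-3p (0.38) and miR-148b-3p with miR-152-3p (0.38), and without the Inv3 mice the relations were 0.11, 0.20, 0.27, 0.27 and 0.50, with 0.67 for the stromal list. Against the mean log2 epithelial level, Lac7 against P18 was -0.45. Where no cause is given, the cause was not tested. The mouse numbers do not pair the mice (33 same-number pairs, mean r = -0.05; 183 others, 0.00): the replicate block changed no member's call, at 3.16 (P18 against W10) and 1.12 (Lac7 against P18) for miR-148a-3p, and no ratio's among P18, Lac7 and Inv3, while the 5 numbers shared with W10 are too few for the ratio test to pass. Counts of all calls were 226, 246, 255, 363, 213 and 155 in the order P18 against W10, Lac7 against P18, Inv3 against Lac7, Lac7 against W10, Inv3 against W10 and Inv3 against P18. On recovered reads they were 214, 247, 250, 317, 173 and 139 with edgeR and 209, 226, 236, 295, 163 and 142 with DESeq2. They were 127, 132, 151, 164, 123 and 101 with a filter at 100 RPM, and 150, 164, 146, 273, 136 and 77 with the further limit of 1 on the size of the log2 fold change. At this depth 1 read is about 1 RPM, which limits the 5p arms.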
